A study of Mus musculus with 9 samples.

Results

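The genes described here are 10 members of the fetal growth and developmental timing network: the RNA-binding protein genes Igf2bp1, Igf2bp2, Igf2bp3, Lin28a and Lin28b, the chromatin gene Hmga2, and the growth genes Igf2, H19, Dlk1 and Igf1. They were taken by symbol from the 48397 gene symbols of the deposited count tables, and all 10 passed the filter on low counts. They were chosen by measured values, with earlier results of these libraries known: their differences between litters and between genotypes. Their differences are therefore given as a description, and p-values of members are not independent evidence. Measures of stage that the choice did not use are tested as well, but they too were set with earlier results known.

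RNA was sequenced from the outflow tract of the embryonic mouse heart, the vessel-forming arterial end of the heart, on a C57BL/6J background at embryonic day 12.5. One group was wild type at Nkx2-5 (labelled Nkx2-5+/+, 4 libraries). The other was homozygous for deletion of the Nkx2-5 enhancer that acts in the anterior second heart field, a source of outflow tract cells (labelled Nkx2-5delta-enh/delta-enh, 5 libraries, called deletion below). Whether each library is a separate embryo is not in the labels, so a p-value here measures the spread between libraries alone, and that spread may be technical.

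Each deposited library also carries a number in its name, which was read as a litter; that reading is an assumption. Wild types 1 and 2 and deletions 1 and 2 share the first number, wild types 3 and 4 and deletions 3 and 4 the second, and deletion 5 has a number of its own. The libraries of the first number are called the first litter (n = 4) and the other 5 the later litters. The labels give the same stage for all 9 libraries.

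In each library between 27707435 and 49094225 reads were assigned to genes, and every pair of libraries differed by more than sampling noise. Levels are given as CPM, gene counts scaled to a common library total. Nkx2-5, the gene whose enhancer was removed, had a mean of 36.3 ± 11.9 CPM in the wild types (SD, n = 4) and of 17.5 ± 4.64 CPM in the deletions (SD, n = 5), with overlapping ranges. Outflow tract markers were present in every library, with a summed level of 431 to 741 CPM. The liver markers Apoa1, Fgb and Serpina1a and the skeletal muscle markers Myf5 and Pax7 were under 1 CPM in every library. The 6 liver markers together nevertheless differed between litters, with 10.04 CPM in wild type 1, 2.56 to 2.93 CPM in the other 3 libraries of the first litter and 0.610 to 1.70 CPM later. Deletion 2 stood apart with 2474 CPM of neuron and Schwann cell markers, against at most 90.8 CPM elsewhere.

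Lin28a and Lin28b bind precursors of the let-7 microRNAs and block their maturation, and let-7 in turn represses Lin28, Igf2bp and Hmga2 transcripts through sites in their 3′ untranslated regions (UTRs). The circuit is best known for high Lin28, Igf2bp and Hmga2 in the embryo, which fall as tissues mature and let-7 accumulates. Igf2bp proteins bind and stabilise many growth transcripts, among them Igf2, while Igf2, H19 and Dlk1 are imprinted genes whose levels fall after birth.

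The let-7 microRNAs are shown because their shared seed links the members. The RefSeq table (GRCm38.p6) held 9 mature let-7 family names from 11 hairpin genes, and all 9 had 1 and the same seed. Capitals mark that seed, bases 2 to 8 counted from the 5′ end.
let-7a-5p: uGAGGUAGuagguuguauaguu
let-7b-5p: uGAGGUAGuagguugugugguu
let-7g-5p: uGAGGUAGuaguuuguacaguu
miR-98-5p: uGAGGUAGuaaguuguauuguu

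The complement of the seed, CTACCTC, was searched on the transcribed strand of the longest annotated 3′ UTR of each gene. Hmga2, Igf2bp1 and Lin28b each held 4 matches, Lin28a held 2, and Igf2bp2, Igf2bp3 and Igf1 held 1. Igf2 and Dlk1 held none, and H19 is a noncoding RNA without a UTR. Of 21020 genes with a 3′ UTR, 9.02% held at least 1 match, 1.08% at least 2 and 0.152% at least 3. Longer UTRs hold more matches. Among genes with a UTR within 20% of the member's length, as many matches as in the member occurred in 0.134% for Hmga2, 0.355% for Igf2bp1 and 0.236% for Lin28b. The same share was 2.10% for Lin28a, 12.1% for Igf2bp2, 13.3% for Igf2bp3 and 33.3% for Igf1.

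One match of each of the 5 members that the results below turn on is shown with its surroundings, from the GRCm38 (mm10) genome, 5′ to 3′ on the minus strand, where all 5 genes lie. Capitals mark the seed match, and a match is a run of letters, not a measured binding site.
Hmga2 (chr10:120364221-120364248): gcgccgacattcaatttCTACCTCagca
Igf2bp1 (chr11:95961775-95961802): gtgctgtgcgaagtaaaCTACCTCaagg
Lin28b (chr10:45381019-45381046): tcacccgggcgggaagtCTACCTCatgc
Igf2bp3 (chr6:49086784-49086811): cgtgcatttttactcaaCTACCTCaggt
Igf2bp2 (chr16:22059470-22059497): aaacacacaaataaaagCTACCTCaggt

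In the GENCODE annotation of mm10, Igf2bp1 occupies chr11:95957163-96005940, Igf2bp2 chr16:22059009-22163299 and Igf2bp3 chr6:49085223-49214957, all protein coding. Lin28a lies at chr4:134003330-134018841, Lin28b at chr10:45376620-45486395 and Hmga2 at chr10:120361275-120476469. The growth genes lie at chr7:142650766-142666816 (Igf2), chr7:142575529-142578143 (H19, a long noncoding RNA), chr12:109452823-109463336 (Dlk1) and chr10:87858265-87937042 (Igf1). Dlk1 and Igf1 are on the plus strand and the other 8 on the minus strand.

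The members differed widely in level. Per kilobase of exon, the wild-type mean was 659 ± 64.9 CPM per kb for H19 and 296 ± 17.7 for Igf2 (SD, n = 4). Igf1 (51.7 ± 13.5) and Dlk1 (34.6 ± 18.6) came next, followed by Igf2bp2 (17.9 ± 4.73), Igf2bp1 (11.4 ± 6.40), Igf2bp3 (11.3 ± 2.19) and Hmga2 (4.37 ± 2.93). Lin28b (0.106 ± 0.115) and Lin28a (0.0971 ± 0.0349) were the lowest. The wild-type ranges of neighbours in this order were apart between H19 and Igf2, Igf2 and Igf1, Igf2bp3 and Hmga2, and Hmga2 and Lin28b. The other neighbours overlapped.

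**Figure D1:**
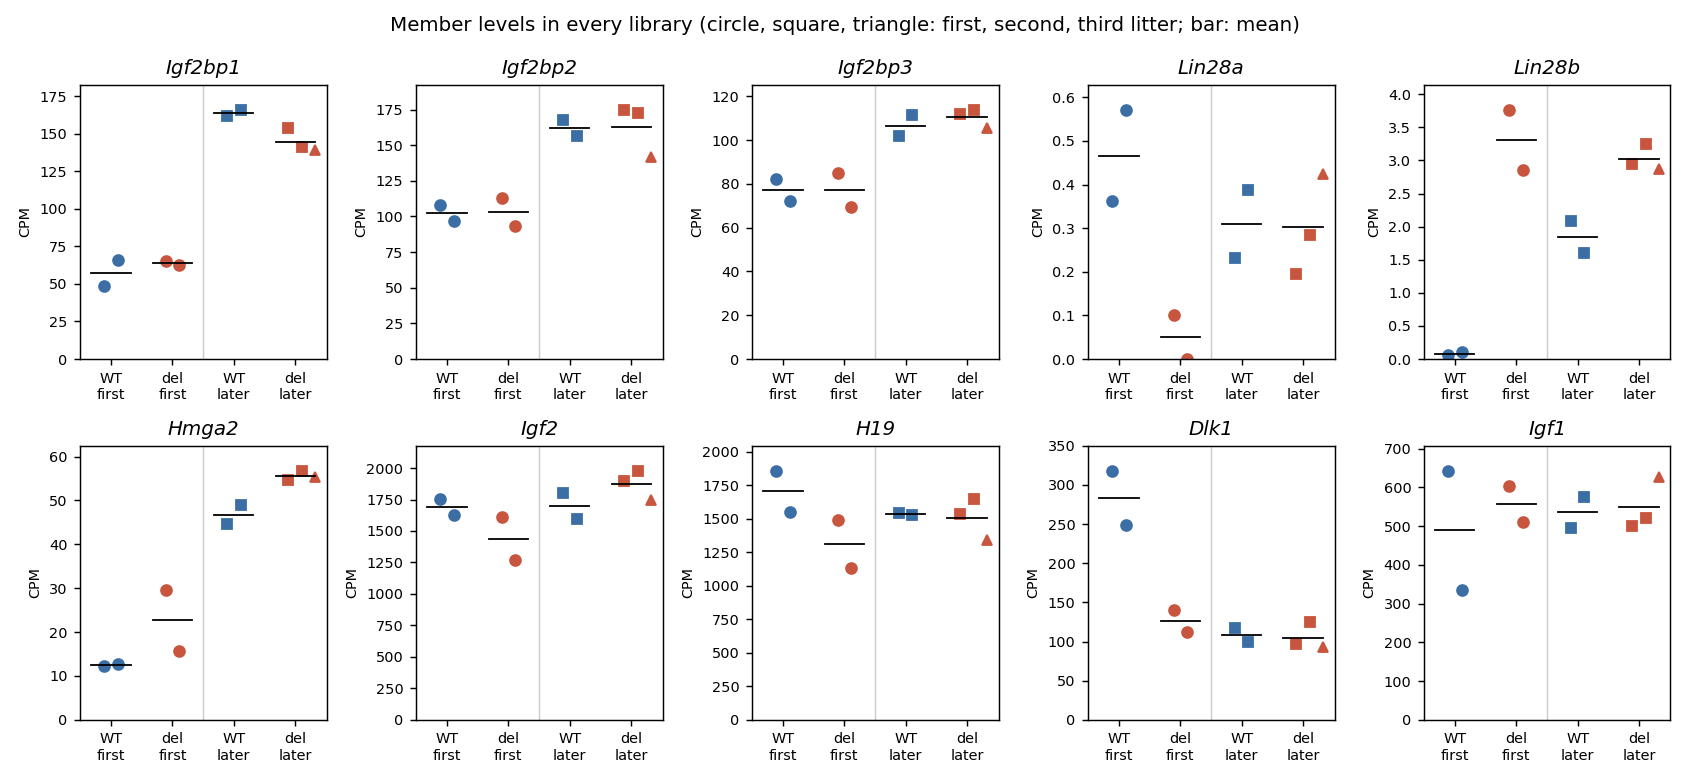
Level of each member in CPM (linear axis from 0) in every library, by genotype (WT, wild type; del, enhancer deletion) and litter; points are libraries and bars are means of the 2 or 3 libraries. Igf2bp1, Igf2bp2, Igf2bp3 and Hmga2 are higher in all 5 later libraries than in all 4 of the first litter, and Lin28b is near 0 in the wild types of the first litter only.

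The 3 Igf2bp genes encode related proteins that bind messenger RNA in the cytoplasm. Igf2bp1 stood at 48.4 and 65.8 CPM in wild types 1 and 2 and at 65.3 and 62.3 CPM in deletions 1 and 2. In the later litters it stood at 162 and 166 CPM in wild types 3 and 4 and at 153, 141 and 139 CPM in deletions 3, 4 and 5. Every later library was thus above every library of the first litter, while the genotypes overlapped. The mean was 60.4 ± 8.18 CPM (SD, n = 4) in the first litter and 152 ± 11.9 CPM (SD, n = 5) later, a log2 difference of 1.33 (SE 0.11) with genotype as covariate, or 2.52-fold. The same log2 difference was 1.52 among wild types and 1.18 among deletions.

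Igf2bp2, the family member that also persists in adult tissues, had a smaller difference. It stood at 108 and 96.9 CPM in wild types 1 and 2 and at 113 and 93.3 CPM in deletions 1 and 2, against 168 and 157 CPM in wild types 3 and 4. Deletions 3, 4 and 5 held 175, 172 and 141 CPM, so that the litters did not overlap here either. Its means were 103 ± 9.29 and 163 ± 13.8 CPM, a log2 difference of 0.66 (SE 0.10), or 1.58-fold.

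Igf2bp3, an oncofetal member of the family, had the smallest difference of the 3. It stood at 82.2, 72.2, 85.0 and 69.6 CPM in wild types 1 and 2 and deletions 1 and 2. It then stood at 102 and 111 CPM in wild types 3 and 4 and at 112, 114 and 105 CPM in deletions 3, 4 and 5. The litters were apart, by less than for its relatives. The means of 77.3 ± 7.49 and 109 ± 5.09 CPM gave a log2 difference of 0.49 (SE 0.09), or 1.41-fold. Its annotated locus shares exon sequence with Malsu1 on the opposite strand (23.0 to 38.4 CPM), and the strand setting of the counting is not given in the sources used here, so some of its reads can belong to that gene. Malsu1 itself had a log2 litter difference of -0.04.

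Hmga2, an architectural DNA-binding protein of embryonic growth, had the widest litter difference of the 4. It was at 12.3 and 12.6 CPM in wild types 1 and 2, 29.6 CPM in deletion 1 and 15.8 CPM in deletion 2. It was at 44.6 and 48.9 CPM in wild types 3 and 4 and at 54.6, 56.8 and 55.4 CPM in deletions 3, 4 and 5. The later libraries were all above the first litter. In the first litter and in the later litters alike the deletions were all above the wild types. With so few libraries, and no count of this split over all genes, nothing is read from it. The means were 17.6 ± 8.17 and 52.1 ± 5.13 CPM, a log2 litter difference of 1.56 (SE 0.19), or 2.95-fold. Between genotypes the log2 difference was 0.52 (SE 0.52), with 0.88 in the first litter and 0.25 in the later litters.

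These 4 were the members called between litters by edgeR's quasi-likelihood test at a Benjamini-Hochberg adjusted p of 0.05, where 9.84% of 16522 genes were called (5.34% higher and 4.49% lower in the later litters). They were also the members whose later libraries all exceeded the first litter, as did those of 7.41% of all genes. The choice of members used this contrast, so nothing is read from these counts. The 4 stayed called in each of the 9 fits that left out 1 library. The count over all genes was 1625, and it was 499 without wild type 3, 602 without wild type 4, 700 without deletion 3 and 986 without wild type 1. The median log2 difference was 0.58 over the 10 members and -0.02 over all genes. With 1 litter against 2, litter and whatever else separates these libraries cannot be told apart. In bulk tissue, fewer cells of a type and less RNA per cell cannot be told apart either.

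**Figure D2:**
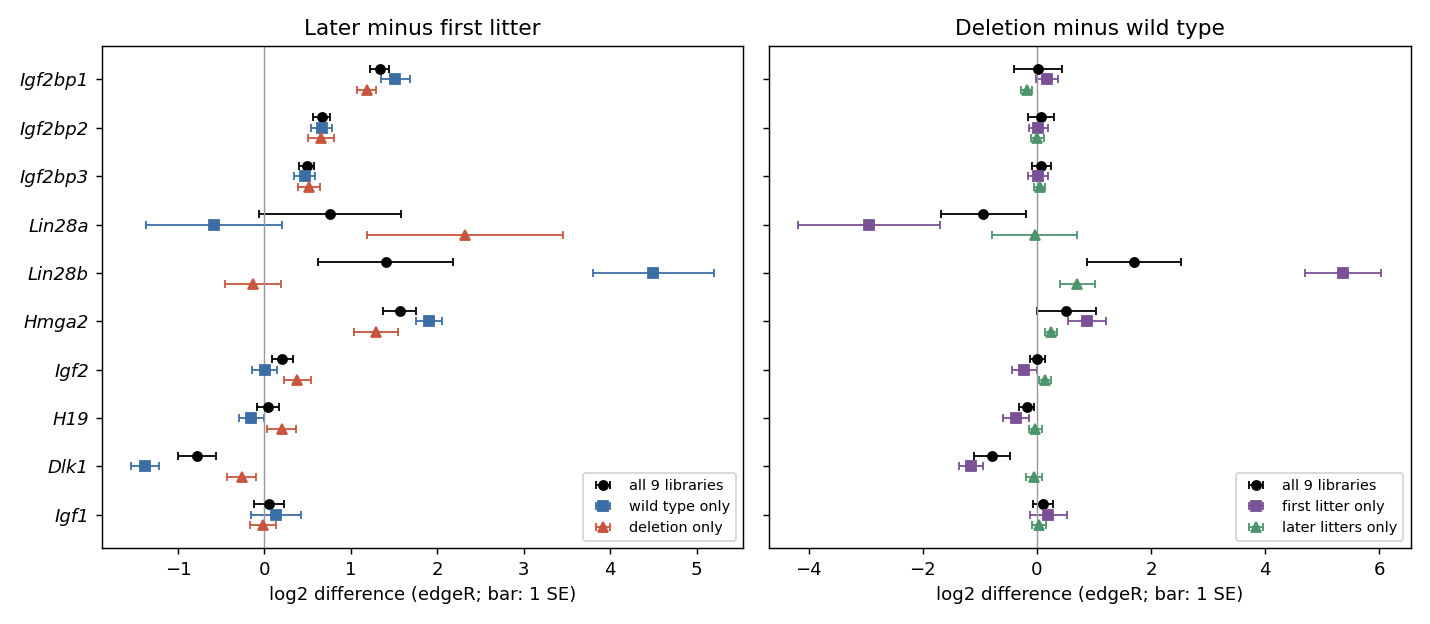
Log2 difference of each member between later and first litter (left) and between deletion and wild type (right), with bars of 1 SE, over all libraries and within each genotype or litter. Lin28b has a litter difference of 4.50 among wild types and -0.14 among deletions, while Igf2bp2 and Igf2bp3 have like differences in both.

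Lin28b had another pattern. Its count was 2 in wild type 1 and 4 in wild type 2, at or near the 3 counts taken as the detection floor, which corresponds to 0.083 and 0.075 CPM there. In deletions 1 and 2 of the same litter it was 187 and 82 counts (3.77 and 2.86 CPM). In the later litters it was 72 and 66 counts (2.09 and 1.60 CPM) in wild types 3 and 4, and 106, 91 and 108 counts (2.95, 3.24 and 2.87 CPM) in deletions 3, 4 and 5. The wild types of the first litter were thus the only libraries almost without Lin28b, and all 5 deletions exceeded all 4 wild types, as they did for 0.829% of genes tested.

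Pooled over libraries, the deletions of the first litter held 43.6 times the Lin28b level of its wild types (exact 95% interval 19.8 to 120, from 269 and 6 counts). Wild types of the later litters held 23.2 times the level of those of the first (10.4 to 64.2, from 138 and 6 counts). Deletions of the later litters held 0.874 times the level of those of the first (0.739 to 1.03). Within the later litters the deletions held 1.65 times the wild-type level (1.34 to 2.03). These intervals cover counting error only, and reads without molecular identifiers are not independent molecules. In both splits the pooled Lin28b level was thus higher in the deletions, and by more in the first litter. Over libraries, the edgeR adjusted p between genotypes was 0.354 in the first litter and 0.888 in the later litters. Deletion 5 has no wild type of its own number.

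Whether the litter difference of Lin28b differed between the genotypes was tested by an interaction term. It was -4.64 on the log2 scale (SE 0.60), with an adjusted p of 0.0431 by edgeR's quasi-likelihood test, which called 0.0605% of genes. Lin28b was chosen with results of these libraries known, so this p is not independent evidence. DESeq2, which called 0.885% of genes, gave an adjusted p of 1.61e-05, and limma's voom, which called 0.0484%, gave 0.320. The edgeR call was kept in 1 of the 9 fits with 1 library removed (0.0156 without deletion 1) and lost in the other 8, with adjusted p up to 0.284. The estimate itself lay between -5.10 and -4.30 under every alternative run. Bves and Hace1, neighbours of Lin28b on chromosome 10, had interaction terms of -0.08 and -0.12 with edgeR adjusted p of 0.992 and 0.971.

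The other 9 genes called by that interaction test all had the opposite sign. They include the adult globin genes Hbb-bs, Hbb-bt and Hba-a2, the haem synthesis gene Alas2, and Trim10, Bpgm, Pamr1 and C920006O11Rik. Summed erythroid markers were at 6619 and 10298 CPM in the wild types of the first litter and at 1876 and 4373 CPM in its deletions. They were at 1811 to 5684 CPM in the later litters. In the wild types of the first litter the summed skeletal muscle markers (6.45 and 7.95 CPM) were also the highest of any library. The part of these cells in the Lin28b values was not tested.

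Lin28a, the second Lin28 gene, was near the floor throughout. Its counts were 13 and 23 in wild types 1 and 2, 5 and 0 in deletions 1 and 2, 8 and 16 in wild types 3 and 4, and 7, 8 and 16 in deletions 3, 4 and 5. A count of 0 in deletion 2 allows up to 0.105 CPM. The deletions of the first litter were the lowest, opposite to Lin28b. The log2 difference was 0.76 (SE 0.82) between litters and -0.94 (SE 0.75) between genotypes, each close to 1 SE. The interaction term of 2.90 had an edgeR adjusted p of 0.701.

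Igf2, the main fetal growth factor of the IGF family, lay between 1269 and 1980 CPM over the libraries. It stood at 1757 and 1630 CPM in wild types 1 and 2, 1610 and 1269 CPM in deletions 1 and 2, 1804 and 1591 CPM in wild types 3 and 4, and 1897, 1980 and 1744 CPM in deletions 3, 4 and 5. The litters overlapped and so did the genotypes, with deletion 2 the lowest library. The log2 difference was 0.21 (SE 0.12) between litters and 0.00 (SE 0.13) between genotypes, and among deletions alone the litter difference was 0.38. The annotation places Igf2os on the opposite strand of Igf2, at 0.872 to 3.34 CPM. It also places the protein-coding gene Gm49394 on the same strand, with shared exons; this symbol has no row in the tables used here, so how reads of the shared exons were counted is not known.

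H19, the noncoding RNA expressed from the maternal allele beside Igf2, was abundant like Igf2. Its levels were 1861 and 1554 CPM in wild types 1 and 2, 1489 and 1136 CPM in deletions 1 and 2, 1541 and 1531 CPM in wild types 3 and 4, and 1535, 1648 and 1346 CPM in deletions 3, 4 and 5. Wild type 1 was the highest library and deletion 2 again the lowest, and litters and genotypes overlapped. The log2 difference was 0.04 (SE 0.13) between litters and -0.18 (SE 0.12) between genotypes.

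Dlk1, an imprinted transmembrane inhibitor of differentiation, had the most negative litter difference of the 10 members. It stood at 318 and 249 CPM in wild types 1 and 2, and at 140 and 112 CPM in deletions 1 and 2. Wild types 3 and 4 held 117 and 99.6 CPM, and deletions 3, 4 and 5 held 96.3, 125 and 93.6 CPM. Both wild types of the first litter thus stood apart from the other 7 libraries, which lay close together. The log2 litter difference was -0.78 (SE 0.22) over all libraries, -1.39 among wild types and -0.27 among deletions; it was not called by edgeR but was by DESeq2 and by limma's voom, which called 17.9% and 12.2% of genes. The log2 genotype difference was -0.79 (SE 0.32), with -1.15 in the first litter and -0.05 in the later litters.

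Dlk1 too was chosen with results of these libraries known, so the p-values of its interaction are not independent evidence. The test of whether its litter difference depended on genotype gave an interaction of 1.12 (SE 0.26). Its adjusted p was 0.338 by edgeR, 0.0118 by DESeq2 and 0.320 by limma's voom, which called 0.0605%, 0.885% and 0.0484% of genes. Dlk1 and Lin28b therefore had opposite signs in the same pair of libraries, the wild types of the first litter, where Dlk1 was high and Lin28b near its floor. Macrophage markers also summed to their highest levels there, 157 and 168 CPM, against 92.6 and 120 CPM in the deletions of the first litter and 33.3 to 64.2 CPM later. Epicardium markers were likewise highest there, at 932 and 980 CPM, against 386 and 711 CPM in the deletions of the first litter and 535 to 725 CPM later. So were liver markers, at 10.04 CPM in wild type 1, the library with the most Dlk1, and 2.93 CPM in wild type 2, against at most 2.79 CPM elsewhere. The part of these cells in the Dlk1 values was not tested.

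Igf1, the growth factor that takes over from Igf2 after birth, showed no separation. Its values were 644 and 334 CPM in wild types 1 and 2, 603 and 512 CPM in deletions 1 and 2, 495 and 576 CPM in wild types 3 and 4, and 501, 521 and 628 CPM in deletions 3, 4 and 5. The spread between the wild types of the first litter was as wide as the range over all libraries. The log2 differences were 0.05 (SE 0.17) between litters and 0.11 (SE 0.17) between genotypes.

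Between deletion and wild type, 0 of the 10 members were called by edgeR's quasi-likelihood test, with adjusted p from 0.896 to 0.998, and the share called over all genes was 0.0%. At an unadjusted p under 0.05 there was 1 member, Dlk1, among 870 genes (5.27%). DESeq2 and limma's voom called 0 members as well, where they called 38 and 4 genes (0.201% and 0.0242%). For the Igf2bp genes the log2 genotype differences were 0.02 (SE 0.42) for Igf2bp1, 0.07 (SE 0.22) for Igf2bp2 and 0.08 (SE 0.17) for Igf2bp3. For Lin28b it was 1.71 (SE 0.83), with 5.37 in the first litter and 0.71 in the later litters. These standard errors come from a fit with genotype alone, whose residual spread holds the litter differences. With litter as a covariate in 2 levels they were smaller for Igf2bp1 (0.11), Igf2bp2 (0.09), Igf2bp3 (0.09) and Hmga2 (0.18), and the log2 genotype differences were -0.03, 0.01, 0.03 and 0.52. In that fit the unadjusted edgeR p was 0.0167 for Lin28b (log2 difference 2.28), 0.0165 for Hmga2 and 0.0270 for Dlk1 (-0.57). Adjusted over all genes, the edgeR p of these 3 was 0.603, 0.603 and 0.615, and 0 members were called.

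Measures of stage that the choice of members did not use were set beside the litters. Earlier results of these libraries were known when the litter split and these measures were set, so the p-values below are not independent evidence. During mouse development the embryonic globins Hbb-bh1, Hbb-y and Hba-x give way to the adult globins Hba-a1, Hba-a2, Hbb-bs and Hbb-bt. The embryonic share of all globin counts was 51.4% and 57.2% in wild types 1 and 2 and 76.2% and 60.7% in deletions 1 and 2. It was 90.5% and 89.9% in wild types 3 and 4 and 90.7%, 89.0% and 89.8% in deletions 3, 4 and 5. The later libraries thus all had a higher embryonic share than the first litter. The means were 61.4 ± 10.6% (SD, n = 4) and 90.0 ± 0.683% (SD, n = 5), a difference of 28.6 percentage points with an exact two-sided permutation p of 0.00794, adjusted p 0.00794 over both stage measures, the smallest that 126 labellings allow. Libraries of a litter share their litter, so this p is over libraries, not litters. Between genotypes the exact permutation p was 0.421 for a difference of 9.03 points.

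In heart muscle the slow skeletal troponin I gene Tnni1 is replaced by the cardiac gene Tnni3 as the heart matures. The log2 ratio of Tnni3 to Tnni1 counts was -2.30 ± 0.10 (SD, n = 4) in the first litter and -2.45 ± 0.05 (SD, n = 5) later, lower in all 5 later libraries. The litters were barely apart, with deletion 2 at -2.395 and wild type 4 at -2.399. The difference of -0.15 had the same exact permutation p of 0.00794, again over libraries and not litters, and between genotypes it was 0.722. Tnni3 itself overlapped between litters, with a log2 difference of -0.31 (SE 0.19). The shift was small next to that of the globins.

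**Figure D3:**
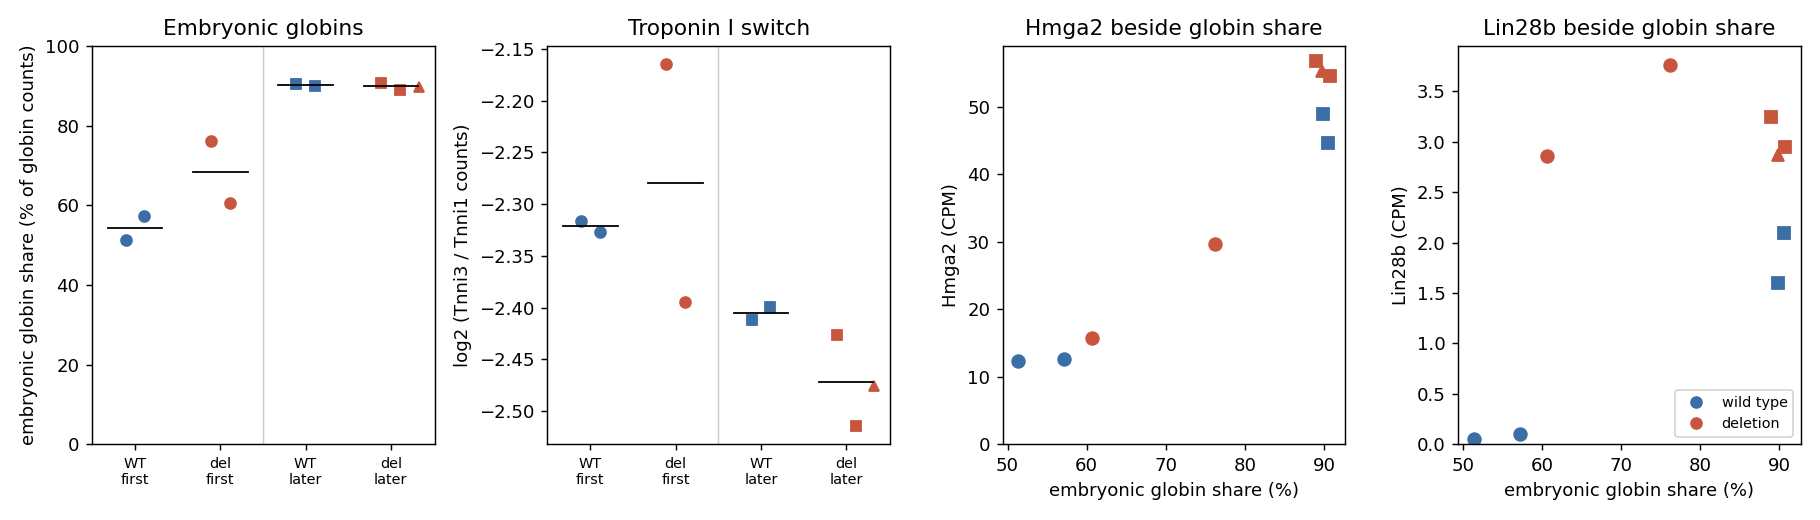
Embryonic share of globin counts (percent) and log2 ratio of Tnni3 to Tnni1 counts in every library (bars, means), and Hmga2 and Lin28b in CPM against the embryonic globin share; circles, squares and triangles are libraries of the first number, the second number and deletion 5. Hmga2 is ordered like the globin share within the first litter, while Lin28b is near 0 in the 2 wild types with the lowest share and at 2.86 CPM in deletion 2, at a share of 60.7%.

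Within the first litter, the order of the libraries by embryonic globin share was wild type 1, wild type 2, deletion 2 and deletion 1, and Hmga2 had that order as well. Igf2bp1 did not: wild type 2 held 65.8 CPM and deletion 1 held 65.3 CPM, with globin shares of 57.2% and 76.2%. Genotype and globin share were thus tied within the first litter, since both wild types had lower shares than both deletions. For Hmga2 and Lin28b in that litter, genotype and this measure of stage cannot be told apart. In the later litters the globin shares were between 89.0% and 90.7%. There the log2 genotype differences were 0.25 for Hmga2, 0.71 for Lin28b and -0.18 for Igf2bp1. None of these was called, with an edgeR adjusted p of 0.888 for Hmga2, 0.888 for Lin28b and 0.908 for Igf2bp1.

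Genes around the members were then read from lists of their pathways, which were also chosen with earlier results of these libraries known. Of 19 tested genes of Lin28 and let-7 processing, 6 rose in the later litters and 0 fell, against 5.34% and 4.49% of all genes, and the list median was 0.25 (-0.02 for all genes). Dgcr8 and Dicer1, the microprocessor and Dicer components of microRNA maturation, rose by 0.56 (SE 0.09) and 0.48 (SE 0.09) on the log2 scale. Xpo5, which exports precursor microRNAs from the nucleus, rose by 0.51 (SE 0.10), with an edgeR adjusted p of 0.0153 and 0.0588 without wild type 3. The count lay between 3 and 6 when 1 library was left out, and was 3 without deletion 3, deletion 4, wild type 3 or wild type 4. The remaining 3 were the nuclease gene Drosha (0.33), the Argonaute gene Ago2 (0.45) and the broad RNA-binding gene Hnrnpa1 (0.34). As background, these factors serve many microRNAs besides let-7.

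Of 31 tested genes described as let-7 targets, 13 rose and 1 fell, against 5.34% and 4.49% of all genes, with a median of 0.48. Igdcc3, an immunoglobulin superfamily receptor of the embryo, rose from 3.80 ± 1.15 CPM (SD, n = 4) to 15.1 ± 4.23 CPM (SD, n = 5), a log2 difference of 1.99 (SE 0.29, edgeR adjusted p = 0.00560). Thbs1, a matrix glycoprotein gene, rose by 1.23 (SE 0.16, edgeR adjusted p = 0.00482) and Pbx3, a homeobox gene, by 0.58 (SE 0.09, edgeR adjusted p = 0.00709). These 3 stayed called without any 1 library. The count of risen targets lay between 6 and 13 in the fits with 1 library removed, with 8 without deletion 3, 7 without wild type 3 and 6 without wild type 4. Between genotypes edgeR called 0 of the targets, with an unadjusted p under 0.05 in 2 of 31 and in 5.27% of all genes.

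The IGF system outside the members was mixed, with 3 of 20 tested genes higher, 2 lower and a median of 0.03. Of all genes, 5.34% were higher and 4.49% lower. Both IGF receptors were among those that rose: Igf2r, which clears Igf2, by 0.82 (SE 0.13, edgeR adjusted p = 0.00687) and Igf1r, the signalling receptor, by 0.48 (SE 0.10, edgeR adjusted p = 0.0173). The insulin receptor substrate gene Irs2 rose by 0.80 (SE 0.16). Igf1r and Irs2 stand in the let-7 target list too. Igfbp6, a binding protein with preference for Igf2, fell by 2.62 (SE 0.41), from 5.76 to 0.835 CPM. Pappa2, a protease of binding proteins, fell by 4.96 (SE 0.91), from 16.8 to 0.529 CPM. Without wild type 4 Igf1r, Irs2 and Pappa2 were not called, nor were Igf1r and Pappa2 without wild type 3, and the counts lay between 1 and 3 in either direction.

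Of 41 tested imprinted genes other than the members, 4 rose and 1 fell, against 5.34% and 4.49% of all genes. Their median of -0.18 was below that of all genes. The paternally expressed zinc finger gene Peg3 rose by 0.50 (SE 0.13) and its neighbour Zim1 by 0.78 (SE 0.14), while Mest, a paternally expressed growth gene, fell by 0.35 (SE 0.09). With 1 library removed in turn, Peg3 and Mest kept their calls in 2 of 9 fits, and Zim1 and Igf2r in all 9. The counts then lay between 2 and 4 risen and 0 and 3 fallen; 2 rose without deletion 2, deletion 3 or any 1 wild type, and 3 fell without deletion 5. DESeq2 called 7 imprinted genes in each direction. The imprinted genes as a list thus did not move one way.

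Partners of the Igf2bp proteins and writers of the m6A mark they read gave 4 risen and 1 fallen gene of 18 tested. The shares over all genes were 5.34% and 4.49%, and the list median was 0.15. With 1 library removed, 1 to 3 genes rose and 0 to 1 fell: 1 rose without deletion 2, deletion 3, wild type 1, wild type 3 or wild type 4. G3bp1, a stress granule protein, rose by 0.44 (SE 0.08) and stayed called without any 1 library. The RNA-stabilising gene Elavl1 rose by 0.30 (SE 0.07) and was called in 4 of the 9 fits with 1 library removed. The neuronal gene Elavl2 fell by 2.51 (SE 0.47), or by 1.62 without deletion 2, the library rich in neuronal markers.

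Genes that rise as the heart matures went the other way from Igf2bp1 and Hmga2: 0 of 11 tested rose in the later litters and 5 fell. The shares over all genes were 5.34% and 4.49%, and the list median was -1.02. With 1 library removed 3 to 6 fell, the fewest without deletion 3 or wild type 3. The muscle creatine kinase gene Ckm fell by 2.57 (SE 0.33, edgeR adjusted p = 0.00537), from 101 ± 71.0 CPM to 16.7 ± 11.7 CPM. The M-band gene Myom2 fell by 1.60 (SE 0.26, edgeR adjusted p = 0.00747) and the calcium store gene Casq2 by 1.66 (SE 0.21, edgeR adjusted p = 0.00361). These 3 were called without any 1 library. Cell type markers moved between the litters as well. Outflow tract markers summed to 431 to 492 CPM in the first litter and 510 to 741 CPM later, and cartilage markers to 227 to 515 CPM and 721 to 825 CPM. Heart muscle markers overlapped. The part of cell makeup in the litter differences was not tested. Between genotypes, 0 of the 136 tested genes of these 6 lists were called by edgeR. An unadjusted edgeR p under 0.05 was found for 10 of them, and for 5.27% of all genes. DESeq2 and limma's voom called 0 as well. Of the 11 heart maturation genes, 10 had a log2 genotype difference below 0 and 1 above it. Their median was -0.59, against 0.003 over all genes, and the unadjusted edgeR p was under 0.05 for 3 of them.

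**Figure D4:**
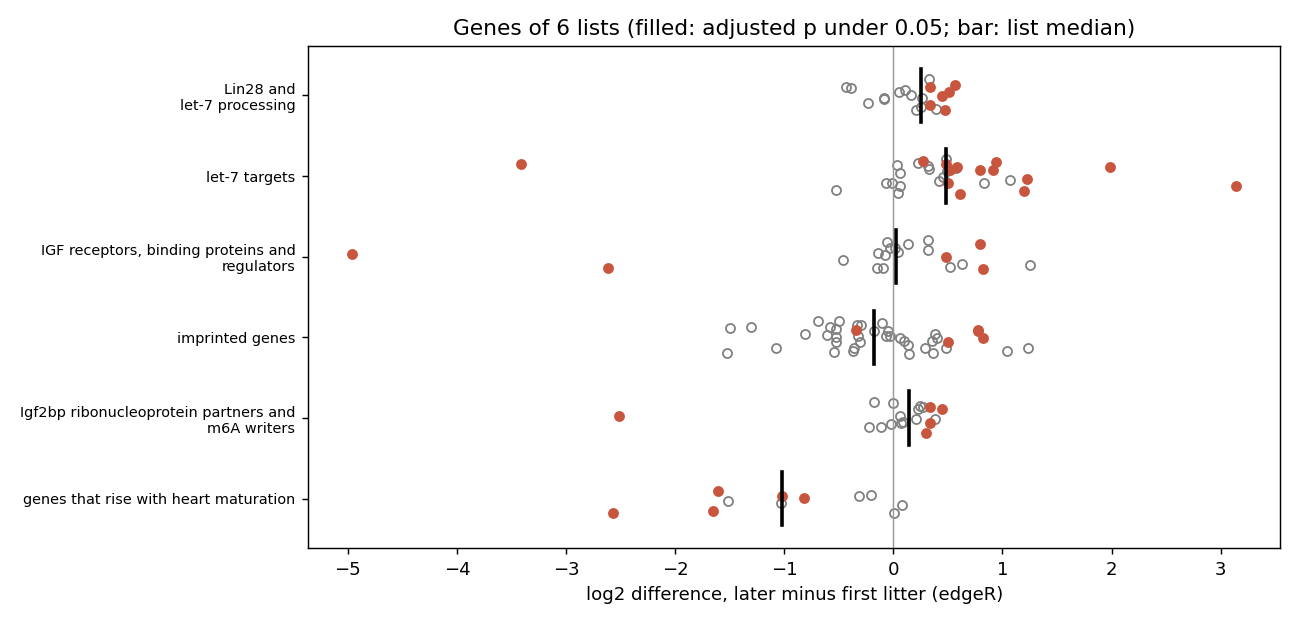
Log2 difference between later and first litter for each tested gene of the 6 lists (points; filled where the edgeR adjusted p is under 0.05; bars, list medians). The let-7 target list has a median of 0.48 and the heart maturation list one of -1.02.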

How the data were processed

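The deposited files hold read counts per gene symbol that the authors made from RNA of dissected outflow tracts (extracted with RNeasy columns and prepared with SMART-Seq for low input, per the labels' protocols). The submitters' processing notes name HTSeq 0.6.0, STAR 2.5.0c, Picard, DESeq2 and the mm10 build, in no order. The strand setting and annotation of the counting are not given there. The 5 rows naming no gene (20.6% to 23.5% of reads) were left out. Genotype came from the sample titles.

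The counts were fitted in R 4.3.3 by the quasi-likelihood test of edgeR 4.0.16 (robust, TMM factors, filterByExpr with a minimum count of 10 in 4 libraries, 16522 genes, two-sided, Benjamini-Hochberg threshold of 0.05): litter with genotype as covariate, genotype alone, and their interaction. SE is the log2 difference over the root of F. CPM use TMM-scaled library sizes. DESeq2 1.42.0 and limma 3.58.1 (voom with sample weights) were alternatives, with other normalizations, filters, covariates and libraries left out. The procedure was tested on simulated data. Stage measures used exact permutation tests (scipy 1.17.1).

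The members, gene lists and stage measures were chosen with earlier results of these data known. The genes named are all members, up to 3 per list and direction with the smallest litter p among those called, the 3 genes nearest in pattern to Igf2bp1 and Igf2, and defining markers; genes called by the interaction test, Drosha, Ago2, Hnrnpa1, the genes of the let-7 site classes, Bves, Hace1 and overlapping genes were added after values were seen. Of 48397 symbols, 46394 matched GENCODE M21 (GRCm38), used for coordinates, exon lengths and 3′ UTRs. Symbols Tut4, Tut7, Mir100hg and Mirlet7bhg of the lists were not found. Some genes that this rule would name are not reported here.

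For replicate numbers 1 to 4, the correlation between genotypes of deviations from the group mean was 0.242, 0.137, 0.227 and 0.176. The numbers follow the litters too (1 and 2 first, 3 and 4 later). The correlation between different numbers of the same litter was not computed, so these values cannot tell pairs from litters. An alternative fit, the replicate block, took the numbers as pairs. With 4 and 5 libraries, 27707435 to 49094225 assigned reads set the counting error, which matters mainly for Lin28a and Lin28b.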

Additional observations from a re-analysis of the deposited data

Results flagged for a closer look

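H19 in wild type 1, at 1861 CPM, lay far from the other 3 wild types, which stood within 1531 and 1554 CPM. It was 1 of 48 groups of libraries examined for a single distant value, where chance gives about 1 in 20. Wild type 1 also held the most liver markers (10.04 CPM summed, against at most 2.93 CPM elsewhere) and the most Dlk1 (318 CPM); the part of such cells in its H19 level was not tested.

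The litter difference of Lin28b in the deletions minus that in the wild types was -4.64 on the log2 scale (edgeR adjusted p = 0.0431). Lin28b was chosen with results of these libraries known, so this p is not independent evidence. DESeq2 gave an adjusted p of 1.61e-05 and limma's voom 0.320. In the 9 fits with 1 library left out the edgeR adjusted p was 0.0156 to 0.284, and the call was lost in 8. The estimate rests on wild types 1 and 2, with 2 and 4 counts, against 66 counts or more in every other library.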

How the results depend on the processing

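The 4 members called between litters were called under each alternative that kept both genotypes, some of which added Dlk1. Among wild types alone Igf2bp3 was not called and Lin28b and Dlk1 were; among deletions alone 1 member (Igf2bp1) was called, and the range when 1 library was left out was 4 to 5. Genes called between litters numbered 3075 with DESeq2, 596 among wild types only and 15 among deletions only, and 499 to 1595 when 1 library was left out. Between genotypes 0 members were called under any of 20 alternatives. The genes called there were 38 with DESeq2, 4 with limma's voom, 1 within the first litter and 0 to 1 when 1 library was left out. The replicate block also called 0 genes and 0 members; it moved the log2 genotype difference of Lin28b from 1.71 to 2.65 and changed no call. It could not be fitted to the litter contrast, since no replicate number occurs in both. The interaction called 157 genes with DESeq2, 69 without a filter, 2 with the library of the third number left out and 0 to 261 when 1 library was left out. Members called were 2 with DESeq2, 2 without a filter (Lin28b and Dlk1), 0 with limma's voom, 0 without the third number, and 0 to 1 when 1 library was left out. The cause was not tested. No member difference called by edgeR over all 9 libraries changed sign under an alternative. The litter difference of Lin28b, not called over all libraries, was 4.50 among wild types and -0.14 among deletions. The litter difference of the embryonic globin share stayed within 25.3 and 33.6 points, and that of the troponin ratio within -0.18 and -0.10. Depth limits Lin28a, with at most 23 counts, and Lin28b in wild types 1 and 2.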

Other observations

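Genes with let-7 seed matches in the 3′ UTR, members left out, were counted between litters. Among 12446 genes with no match 5.88% were higher in the later litters, 103 of 1287 with 1 match, 20 of 154 with 2 matches, and 3 of 25 with 3 or more, a share below that of the class with 2. These 3 are Hif1an, Ago2 and the stem cell RNA-binding gene Trim71. The median 3′ UTR length rose from 1082 to 4466 bases over these classes. Within UTRs of 2 to 5 kb, the shares were 5.74% for no match, 9.01% for 1 and 5.38% for 2 or more (93 genes). Precursor rows of the let-7 genes in the tables held at most 7 counts in any library, and mature let-7 was not measured.

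The genes nearest to Igf2bp1 in pattern over the 9 libraries, by root mean square difference of centred log2 CPM, were Colq (0.178), Ciart (0.180) and Nipal4 (0.203). Nipal4 stood at 35.1 to 59.7 CPM in the first litter and 89.2 to 117 CPM later. Nearest to Igf2 were 1810055G02Rik (0.0497), Ccm2 (0.0569) and Slc25a1 (0.0583). Igf2 and H19 were also close to each other (0.134), as were Igf2bp2 and Igf2bp3 (0.114).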
